A study of Mus musculus with 8 samples.

Results

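Genes of the perineuronal net and of the lectican matrix of the brain, 10 in all, were followed in RNA from mouse cortex: the lecticans Acan, Bcan, Ncan and Vcan, the link proteins Hapln1 and Hapln4, the tenascins Tnr and Tnc, and the membrane proteoglycans Ptprz1 and Cspg5. They were chosen by gene symbol, with earlier results of these data known. All 10 were found among the 28662 transcripts of the deposited table, and all 10 were among the 10588 genes that passed the filter on low values. The values are normalized counts, which are reads on the exons of a gene divided by a factor for each mouse.

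The question was which transcripts differ between cortex that makes a human TDP-43 found mainly, but not only, in the cytoplasm and cortex that does not. Bigenic mice (Camk2a-tTa / deltaNLS-hTDP-43, n = 4) carried a tetracycline-controlled transactivator under the Camk2a promoter, which is active in excitatory neurons of the forebrain, and human TDP-43 with a disabled nuclear localization signal. The controls were nontransgenic mice (n = 4), which had neither the transactivator nor the transgene, so the effects of these cannot be told apart. Both groups were C57BL/6 mice kept on doxycycline, which holds the transgene silent, until an age of 28 days, and right cortices were collected 10 days later, at 38 days. Bigenic mice are called A to D and nontransgenic mice E to H. TDP-43 is a nuclear RNA-binding protein that prefers UG repeats and that is lost from the nucleus and deposited in the cytoplasm of neurons in amyotrophic lateral sclerosis and frontotemporal dementia.

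Lecticans are secreted core proteins that carry chondroitin sulphate chains. One end of a lectican binds the long sugar hyaluronan, a bond that link proteins stabilize, and the other end binds tenascins, so that together they form a mesh between cells. Around some neurons, above all parvalbumin interneurons, the mesh condenses into the perineuronal net, which closes around the cell body as cortical circuits mature. In cortex the parts come from several cell types, astrocytes, oligodendrocyte precursors and neurons among them. In bulk RNA, fewer cells of a type and less RNA per cell cannot be told apart.

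Reads on genes, estimated from the steps between low values, were between 10.6 M and 31.9 M per mouse. Bigenic mouse B was the shallowest and stood apart from its group: 81.5% of the tested genes lay outside the range of its 3 group mates, against 32.6% to 65.9% for the other mice. Its deviation from the mean of all 8 mice rose with the GC content of the exons across genes (Spearman's rho 0.388). For nontransgenic mouse E the same measure was -0.353, a trend of the opposite sign. It was -0.181, -0.164 and -0.031 in nontransgenic mice F to H, and -0.073, -0.079 and 0.116 in bigenic mice A, C and D. It was thus below 0 in every nontransgenic mouse, so this trend is partly aligned with the groups. The mean of all 8 mice includes mouse B, so the signs in the other mice are not independent of it. Values without mouse B are therefore given for the 10 genes, for their ratios and for the gene lists. Markers of excitatory cortical neurons were present in every mouse, as the labelled tissue requires, and 8 of 8 were tested.

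Of the 10 genes, 5 differed between the groups, 4 of them lower and 1 higher in bigenic cortex. Ncan, Hapln1, Tnc and Ptprz1 were at 0.730, 0.583, 0.660 and 0.693 times the nontransgenic level, and Tnr was at 1.27 times it. In each of these 5 genes all 4 bigenic mice lay on 1 side of all 4 nontransgenic mice. Acan, Bcan, Vcan, Hapln4 and Cspg5 did not pass the test. Over all genes tested with limma at an adjusted p below 0.05, 35.9% were called, 15.4% lower and 20.5% higher. Groups that did not overlap were found in 16.7% of all tested genes in the lower direction and in 22.3% in the higher direction. Thus 4 of 10 members were lower where 15.4% of all genes were, and 1 of 10 was higher where 20.5% of all genes were. The median log2 fold change of the 10 genes was -0.14, against 0.03 over all genes tested. All 5 calls were kept in each of the 8 fits that left out 1 mouse.

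**Figure D1:**
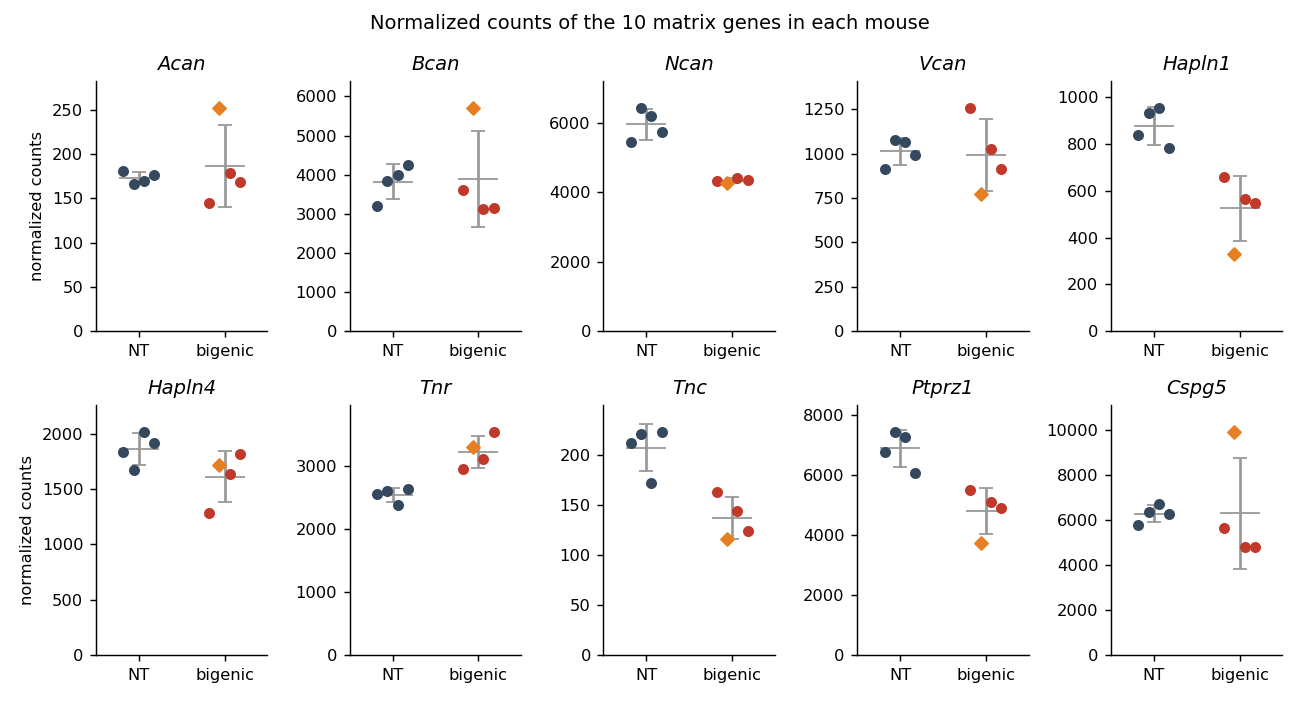
Normalized counts (vertical axes, starting at 0) of the 10 genes in each nontransgenic (NT, dark circles) and bigenic (red circles, mouse B as an orange diamond) mouse, with grey bars for the mean and SD of 4 mice. The groups separate for Ncan, Hapln1, Tnr, Tnc and Ptprz1, and mouse B is the highest bigenic mouse for Acan, Bcan and Cspg5 and the lowest for Ncan, Vcan, Hapln1, Tnc and Ptprz1.

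Among the lecticans only Ncan passed the test. Ncan encodes neurocan, the lectican of the developing brain, whose level declines after birth. Its normalized counts were 4312, 4262, 4407 and 4363 in bigenic mice A to D and 5440, 6433, 6210 and 5734 in nontransgenic mice E to H. The bigenic mice lay close together and all below the lowest nontransgenic mouse. The means were 4336 ± 62.8 (SD, n = 4) and 5954 ± 450.0 (SD, n = 4), a log2 fold change of -0.45 (SE 0.07, limma adjusted p = 0.00134). Without mouse B the change was -0.45 on the log2 scale (adjusted p = 0.000383).

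Ncan lies on the minus strand of chromosome 8 (chr8:72616984-72644772, build mm9, 15 exon blocks). The 250 bases before a transcript start of Ncan in RefSeq, on the minus strand at chr8:70120845-70121094 of build GRCm38.p6, are shown because this gene had the smallest adjusted p of the 10. Capitals mark, from left to right, a GC box (GGGCGG), an E-box (CAGCTG) and a TATA box core (TATAAA) read on the opposite strand.
Ncan promoter: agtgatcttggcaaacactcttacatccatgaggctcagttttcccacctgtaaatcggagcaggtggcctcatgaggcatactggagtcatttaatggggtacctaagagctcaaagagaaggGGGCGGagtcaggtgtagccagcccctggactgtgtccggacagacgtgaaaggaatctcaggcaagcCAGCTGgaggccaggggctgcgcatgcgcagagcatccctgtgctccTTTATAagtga
Of all 32851 RefSeq promoters of this length, 32.7% hold the GC box letters, 13.0% the E-box letters and 12.4% the TATA box letters on either strand, and 33.9% hold CCAAT, which is not in this window.

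The other lecticans gave intervals that include no change. Acan encodes aggrecan, the lectican by which most perineuronal nets are recognized. Its normalized counts were 145, 252, 179 and 168 in bigenic mice A to D and 181, 166, 170 and 176 in nontransgenic mice E to H. The groups overlapped, and mouse B was the highest of all 8. The means were 186.0 ± 46.2 and 173 ± 6.6 (SD, n = 4 each), a log2 fold change of 0.07 (95% interval -0.30 to 0.45, adjusted p = 0.759), and without mouse B it was -0.08 (adjusted p = 0.584). Bcan encodes brevican, the lectican of the adult brain, made by glia and neurons. It was at 3620, 5710, 3115 and 3141 in bigenic mice A to D and at 3195, 3836, 4002 and 4240 in nontransgenic mice E to H. Mouse B was again above all others, while bigenic mice C and D were below every nontransgenic mouse. The log2 fold change of Bcan was -0.01 (95% interval -0.42 to 0.40, adjusted p = 0.97) with mouse B and -0.21 (95% interval -0.42 to 0.00, adjusted p = 0.0993) without it. Vcan encodes versican, whose brain forms come from oligodendrocyte precursors and other cells. Its normalized counts were 1257, 771, 1023 and 914 in bigenic mice A to D and 911, 1078, 1066 and 992 in nontransgenic mice E to H. Bigenic mice held both the highest and the lowest value. The log2 fold change of Vcan was -0.05 (95% interval -0.36 to 0.26, adjusted p = 0.802), and without mouse B it was 0.06 (adjusted p = 0.646).

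Of the link proteins, Hapln1 fell and Hapln4 did not pass the test. Hapln1 encodes cartilage link protein, which locks lecticans onto hyaluronan and is needed for nets to condense. Its normalized counts were 658, 329, 566 and 547 in bigenic mice A to D and 838, 930, 954 and 784 in nontransgenic mice E to H. Every bigenic mouse was below the lowest nontransgenic mouse, and mouse B was the lowest of all 8. The means were 525.0 ± 139 and 876.5 ± 79.4 (SD, n = 4 each), a log2 fold change of -0.78 (SE 0.19, adjusted p = 0.0103). This was the largest fall of the 10 genes with mouse B and, at -0.57 (SE 0.09, adjusted p = 0.000662), also without it. Hapln4 encodes brain link protein 2, which is bound to brevican in nets. It was at 1282, 1719, 1634 and 1822 in bigenic mice A to D and at 1839, 1671, 2022 and 1921 in nontransgenic mice E to H. Only mouse A was far below the nontransgenic mice, and the groups overlapped. The log2 fold change of Hapln4 was -0.22 (95% interval -0.47 to 0.04, adjusted p = 0.168). Without mouse B it was -0.25 (95% interval -0.50 to -0.003, adjusted p = 0.0906), an interval that just excludes 0.

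Hapln1 lies on the plus strand of chromosome 13 (chr13:89680241-89751437, mm9, 5 exon blocks). The gene holds 17 runs of TG repeats of at least 12 bases on its sense strand, all intronic. Most of them are pieces of a stretch at chr13:89690450-89690786 (mm9), split by a few other bases and counted singly. The density was 23.9 per 100 kb, against a median of 7.70 per 100 kb over the 10207 tested genes with an annotation. For Hapln1 it thus counts mostly pieces of this stretch rather than separate sites. The longest run, of 55 bases at chr13:89702227-89702281 (mm9), is shown with 10 bases on each side because UG repeats are the letters TDP-43 is known to bind. Capitals mark the run.
Hapln1 intron: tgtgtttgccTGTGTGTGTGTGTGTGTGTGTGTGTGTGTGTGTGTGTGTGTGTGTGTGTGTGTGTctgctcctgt
Below are the 250 bases before a transcript start of Hapln1 in RefSeq (plus strand, chr13:89540386-89540635, GRCm38.p6), which hold none of these 4 motifs on either strand.
Hapln1 promoter: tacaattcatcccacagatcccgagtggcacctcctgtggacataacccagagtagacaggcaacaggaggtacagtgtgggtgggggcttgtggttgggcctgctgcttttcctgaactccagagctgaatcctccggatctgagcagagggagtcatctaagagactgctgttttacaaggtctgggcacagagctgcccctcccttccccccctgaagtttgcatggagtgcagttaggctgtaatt

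The tenascins moved in opposite directions. Tnr encodes tenascin-R, a tenascin of the central nervous system that crosslinks lecticans in mature nets and is made by oligodendrocytes and some neurons. Its normalized counts were 2954, 3301, 3119 and 3551 in bigenic mice A to D and 2559, 2601, 2389 and 2643 in nontransgenic mice E to H. Every bigenic mouse was above the highest nontransgenic mouse. The means were 3231 ± 256 and 2548 ± 111 (SD, n = 4 each), a log2 fold change of 0.34 (SE 0.08, adjusted p = 0.00828), and without mouse B it was 0.33 (adjusted p = 0.00413). Tnc encodes tenascin-C, the tenascin of immature brain that falls to low levels in adult cortex. It was at 163, 116, 144 and 124 in bigenic mice A to D and at 212, 221, 172 and 223 in nontransgenic mice E to H. The highest bigenic mouse, A, was just below the lowest nontransgenic mouse, G. The means were 137 ± 21.1 and 207.0 ± 23.8 (SD, n = 4 each), a log2 fold change of -0.60 (SE 0.15, adjusted p = 0.0131), and without mouse B it was -0.53 (adjusted p = 0.0104). Tnc was the most shallowly read of the 10 genes, with an estimated 56 reads in mouse B. Exons of Tnc overlap 8030451A03Rik on the other strand, and no source used here says that strand was used in counting, so reads of the pair cannot be told apart.

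Tnr lies at chr1:161667641-161855053 (plus strand, mm9, 22 exon blocks). With the pieces of broken repeats counted singly, it holds 20 TG runs, the most of the 10 genes, all intronic. Tnc lies at chr4:63620819-63681760 (minus strand, mm9, 26 exon blocks) and holds 5, also all intronic. Their longest runs, of 59 bases at chr1:161790520-161790578 and of 49 bases at chr4:63624733-63624781 (mm9), are shown because the genes that hold them moved in opposite directions. Capitals mark the runs.
Tnr intron: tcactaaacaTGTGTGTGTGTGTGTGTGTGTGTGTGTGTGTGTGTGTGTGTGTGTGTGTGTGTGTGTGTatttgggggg
Tnc intron: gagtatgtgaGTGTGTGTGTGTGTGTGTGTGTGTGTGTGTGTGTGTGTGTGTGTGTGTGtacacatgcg
The promoter sequences are shown for the same contrast. For Tnr the 250 bases before a RefSeq transcript start (plus strand, chr1:159523519-159523768, GRCm38.p6) have a GC content of 46.8% and hold none of the 4 motifs. For Tnc those 250 bases (minus strand, chr4:64047016-64047265, GRCm38.p6) have a GC content of 44.8% and hold 1 GC box and 1 TATA box core, in capitals. Another RefSeq start of Tnc (chr4:64046937-64047186), not shown, gives 51.2% and the same motif counts. The order of Tnr and Tnc in GC content thus depends on the start used.
Tnr promoter: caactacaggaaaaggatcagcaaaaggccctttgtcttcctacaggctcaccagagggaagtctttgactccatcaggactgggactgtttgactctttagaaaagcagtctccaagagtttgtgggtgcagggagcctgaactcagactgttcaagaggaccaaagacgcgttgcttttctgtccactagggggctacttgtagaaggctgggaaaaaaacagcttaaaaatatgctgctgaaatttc
Tnc promoter: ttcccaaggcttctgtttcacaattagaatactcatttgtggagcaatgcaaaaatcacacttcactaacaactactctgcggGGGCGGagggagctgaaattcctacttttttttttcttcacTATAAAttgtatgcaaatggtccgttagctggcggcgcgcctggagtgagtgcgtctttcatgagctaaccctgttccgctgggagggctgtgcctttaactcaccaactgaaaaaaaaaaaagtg

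Of the membrane proteoglycans, Ptprz1 fell. Ptprz1 encodes a receptor tyrosine phosphatase of glia and their precursors whose secreted form, phosphacan, is a proteoglycan that binds tenascins in the net. Its normalized counts were 5497, 3733, 5111 and 4899 in bigenic mice A to D and 6779, 7462, 7279 and 6067 in nontransgenic mice E to H. Every bigenic mouse was below every nontransgenic mouse, with mouse B the lowest. The means were 4810.0 ± 759 and 6897 ± 624 (SD, n = 4 each), a log2 fold change of -0.53 (SE 0.12, adjusted p = 0.00841), and without mouse B it was -0.41 (adjusted p = 0.00167). The 4 bigenic mice stood in the same order, A, C, D and B from high to low, for Ptprz1, Hapln1, Vcan and Tnc. Cspg5 encodes neuroglycan C, a transmembrane proteoglycan with an EGF-like module found on neurons and glia. It was at 5655, 9929, 4797 and 4775 in bigenic mice A to D and at 5795, 6341, 6728 and 6247 in nontransgenic mice E to H. Mice A, C and D were below every nontransgenic mouse, and mouse B was above all of them. The log2 fold change of Cspg5 was -0.07 (95% interval -0.52 to 0.39, adjusted p = 0.82) with mouse B and -0.31 (95% interval -0.48 to -0.14, adjusted p = 0.00742) without it. Of the 8 fits that left out 1 mouse, Cspg5 was called only in the one without mouse B.

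Ptprz1 lies at chr6:22825502-23002916 (plus strand, mm9, 30 exon blocks) and holds 13 TG runs, all intronic, or 7.33 per 100 kb. The 250 bases before a RefSeq transcript start of Ptprz1 (plus strand, chr6:22875252-22875501, GRCm38.p6) are shown beside those of Hapln1 as the promoter of another gene that fell. Their GC content was 71.6% with 22 CpG, against 54.4% with 2 CpG for Hapln1, and over all promoters the medians were 52.4% and 6. Capitals mark 2 GC boxes.
Ptprz1 promoter: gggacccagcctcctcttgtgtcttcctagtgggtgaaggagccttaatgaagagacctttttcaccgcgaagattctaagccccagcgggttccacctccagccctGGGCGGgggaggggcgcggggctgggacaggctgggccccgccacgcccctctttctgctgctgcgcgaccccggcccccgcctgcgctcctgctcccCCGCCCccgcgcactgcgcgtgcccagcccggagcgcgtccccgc
Over the 10 genes there were 70 TG runs, with pieces of broken repeats counted singly, none of them in an exon, and Cspg5 held none. Ncan, which fell, held 4, the longest of 14 bases, or 14.4 per 100 kb, and Tnr, which rose, held 20, or 10.7 per 100 kb. At least 1 run was present in 73.6% of tested genes with an annotation, and a run in an exon in only 11.2% of them.

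**Figure D2:**
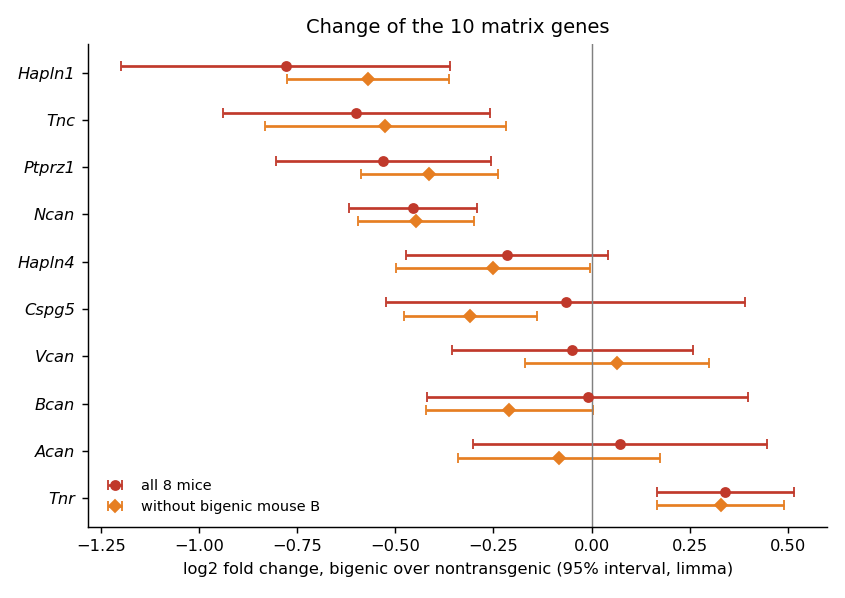
Log2 fold change of bigenic over nontransgenic mice (horizontal axis, log2 scale) with its 95% interval from limma for the 10 genes, with all 8 mice (red circles) and without bigenic mouse B (orange diamonds). Intervals for Hapln1, Tnc, Ptprz1, Ncan and Tnr lie clear of 0 both ways. Those of Cspg5 and, barely, Hapln4 do so only without mouse B, where the changes were -0.31 and -0.25.

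Leaving out mouse B gave 5 genes lower (Ncan, Hapln1, Tnc, Ptprz1 and Cspg5) and 1 higher (Tnr), where 20.2% of all tested genes were lower and 25.3% higher. The median log2 fold change of the 10 genes was then -0.28, against 0.02 over all genes. The ratio of mouse B to the other bigenic mice was higher for genes of higher exon GC content. Cspg5, Bcan and Acan, with exon GC contents of 55.9%, 61.3% and 54.8%, were 1.96, 1.74 and 1.54 times the mean of the other 3 bigenic mice in mouse B. Hapln1, Vcan and Ptprz1, with 38.0%, 42.7% and 44.5%, were 0.557, 0.724 and 0.722 times that mean. Ncan, at 55.1% GC, was near the other mice, at 0.977 times their mean, as were Tnr at 1.03 and Hapln4 at 1.09 times, and Tnc was at 0.807 times. Over the 10 genes Spearman's rho between exon GC content and this ratio was 0.879, a description of 1 library in which the genes share its depth. With a trend on exon GC content and length removed from each mouse, an alternative chosen after seeing the data, the 5 calls stood and Hapln4 was also called lower (-0.31, adjusted p = 0.0412). In that fit 3974 of 10207 tested genes were called, 1707 of them lower. On that scale Hapln1 was at -0.64, Ncan at -0.57, Tnc at -0.67, Ptprz1 at -0.49 and Tnr at 0.29, while Cspg5 was at -0.15 (adjusted p = 0.503).

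**Figure D3:**
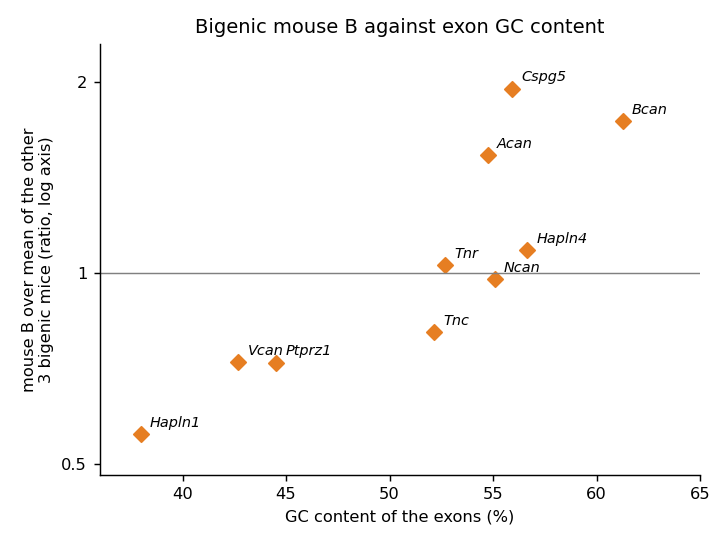
Ratio of bigenic mouse B to the mean of the other 3 bigenic mice (vertical axis, log scale) against the GC content of the exons (horizontal axis, percent) for the 10 genes, each a diamond. The ratio runs from 0.557 for Hapln1 at 38.0% GC to 1.96 for Cspg5 at 55.9%.

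Levels between genes were compared per kb of annotated exon. In nontransgenic cortex the level in normalized counts per kb was highest for Cspg5 (1622 ± 99.0, SD, n = 4) and Bcan (1169 ± 137), then Ptprz1 (855 ± 77.3) and Ncan (828 ± 62.5). Hapln4 (521 ± 41.5) and Tnr (515 ± 22.5) followed, then Hapln1 (173 ± 15.7), Vcan (69.9 ± 5.34), Tnc (27.6 ± 3.17) and Acan (23.6 ± 0.898). The ranges over the 4 mice overlapped for Ptprz1 and Ncan, for Hapln4 and Tnr, and for Tnc and Acan, so these neighbours in the order did not differ beyond their spread. In bigenic cortex Tnr, at 653 ± 51.7 per kb, had the third level in the order, ahead of Ncan (603 ± 8.73) and Ptprz1 (596 ± 94.1), and Tnc (18.2 ± 2.81) was below Acan (25.3 ± 6.29). The ranges over the bigenic mice overlapped for Tnr, Ncan and Ptprz1 and for Tnc and Acan, so these places in the order did not differ beyond their spread. Aggrecan and tenascin-C transcripts were thus the lowest of the 10 in both groups.

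Ratios between related members within a mouse do not depend on the scaling between mice, and 8 pairs were compared by an exact two-sided permutation test over 70 arrangements. The smallest p this design can give is 0.0286, and no pair passed after adjustment over the 8 pairs, for which at least 5 pairs would have had to separate fully. The log2 ratio of Tnc to Tnr was -4.17, -4.82, -4.43 and -4.83 in bigenic mice A to D and -3.59, -3.55, -3.79 and -3.56 in nontransgenic mice E to H. These groups did not overlap, and the difference was -0.94 (pooled SD 0.24, exact permutation p = 0.0286, adjusted p = 0.0762), or -0.85 without mouse B. The log2 ratio of Acan to Ncan was -4.88, -4.07, -4.61 and -4.69 in bigenic mice and -4.90, -5.27, -5.18 and -5.02 in nontransgenic mice. It was higher in every bigenic mouse, by 0.53 on average (exact permutation p = 0.0286, adjusted p = 0.0762), though mouse A was close to mouse E, and by 0.36 without mouse B. The log2 ratio of Ncan to Vcan was 1.78, 2.47, 2.11 and 2.25 in bigenic mice and 2.58, 2.58, 2.54 and 2.53 in nontransgenic mice. It was lower in every bigenic mouse, with a difference of -0.41 (exact permutation p = 0.0286, adjusted p = 0.0762), or -0.51 without mouse B. For Bcan to Ncan the difference was 0.44 (exact permutation p = 0.0857, adjusted p = 0.171), and without mouse B it was 0.24. For Hapln1 to Hapln4 it was -0.56 (exact permutation p = 0.114, adjusted p = 0.183), and without mouse B it was -0.32. Acan to Bcan, Acan to Vcan and Bcan to Vcan differed by 0.08, 0.12 and 0.04, each with overlapping groups, and by 0.13, -0.15 and -0.27 without mouse B.

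**Figure D4:**
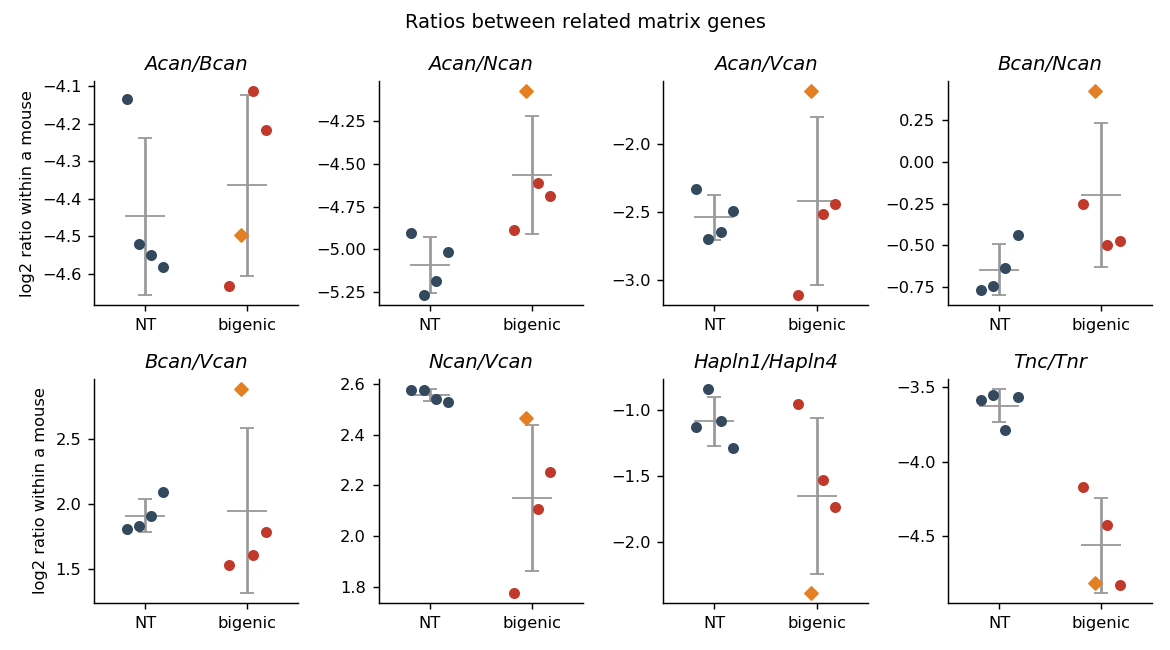
Within-mouse log2 ratios (vertical axes, which do not start at 0) of 8 pairs of related genes in nontransgenic (NT, dark circles) and bigenic (red circles, mouse B as an orange diamond) mice, with grey bars for the mean and SD of 4 mice. Groups do not overlap for Tnc/Tnr, Acan/Ncan and Ncan/Vcan.

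Each lectican gene has a link protein gene as its neighbour, and no annotated protein-coding gene lies between them. On chromosome 8 Ncan and Hapln4 are 2.22 kb apart (mm9), and Ncan fell while the interval of Hapln4 with all 8 mice included 0. Without mouse B the interval of Hapln4 just excluded 0 (-0.50 to -0.003), in the same direction as Ncan. On chromosome 13 Vcan and Hapln1 are 43.5 kb apart, and Hapln1 fell while the interval of Vcan included 0. On chromosome 3 Bcan lies 21.4 kb from Hapln2, the link protein of myelinated fibres, which was higher in bigenic mice (0.38 on the log2 scale, adjusted p = 0.016, and 0.0538 without nontransgenic mouse F). On chromosome 7 Acan lies 40 bases from Hapln3, which did not pass the filter. The difference between the neighbours of a pair was not tested.

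Related matrix genes were taken from lists of the pathway, written with earlier results of these data known. Over all tested genes 20.5% were higher and 15.4% lower, or 25.3% and 20.2% without mouse B. Of the hyaluronan genes 3 of 11 were tested and none was called by limma, with a median of 0.05 against 0.03 over all genes (0.09 against 0.02 without mouse B). The 3 were Ugdh, which makes the sugar precursor (0.13, adjusted p = 0.429), Tmem2, a hyaluronidase (0.05, adjusted p = 0.737), and 9930013L23Rik, the older symbol of the hyaluronan-degrading Cemip (-0.15, adjusted p = 0.537). At an unadjusted p under 0.05 none of the 3 was called either. Limma with array weights, which called 6455 of all 10588 tested genes, called Tmem2 (0.16, adjusted p = 0.0458) and 9930013L23Rik (-0.24, adjusted p = 0.0103). Without mouse B the latter was lower (-0.33, adjusted p = 0.014).

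Of other link, tenascin and proteoglycan genes 9 of 12 were tested, 2 higher and 1 lower, with a median of -0.12, and without mouse B the counts were 2 and 1 and the median -0.13. Spock1, a testican proteoglycan, was at 3793, 4324, 4640 and 4380 in bigenic mice A to D and at 6438, 5323, 5749 and 5640 in nontransgenic mice E to H. All bigenic mice were below all nontransgenic mice (-0.43, adjusted p = 0.00438). Its relative Spock3 was higher (0.47, adjusted p = 0.0179, and 0.0578 without nontransgenic mouse G and 0.0529 without mouse F). Bgn, the small proteoglycan biglycan, was at -0.33 (adjusted p = 0.166).

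Of the genes that build chondroitin sulphate 17 of 22 were tested, 3 higher and 1 lower, with a median of 0.08, and without mouse B 4 were higher and 2 lower, with a median of 0.09. The higher genes included both chondroitin polymerizing factors. Chpf was at 1515, 2068, 1581 and 1639 in bigenic mice A to D and at 1026, 1018, 1016 and 1077 in nontransgenic mice E to H. The groups were far apart (0.71, adjusted p = 0.00072). Chpf2 rose by 0.51 on the log2 scale (adjusted p = 0.000685), while Csgalnact1, which starts the chain, fell by 0.34 on the log2 scale (adjusted p = 0.00657). B3gat3, which completes the linker to the core protein, was higher by 0.36 (adjusted p = 0.0342), but its adjusted p was 0.0603 without bigenic mouse D and up to 0.101 without nontransgenic mice E, F or H, the highest without E.

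Of matrix proteases and their inhibitors 13 of 21 were tested, 2 higher and 1 lower, with a median of 0.00, and without mouse B 3 were higher and 2 lower, with a median of 0.18. Timp2, an inhibitor of matrix metalloproteinases, was at 3693, 3152, 3576 and 3335 in bigenic mice A to D and at 6272, 5591, 5465 and 5305 in nontransgenic mice E to H. It fell by 0.72 on the log2 scale (adjusted p = 0.000225), while Timp3 was at -0.31 (adjusted p = 0.0611). The membrane metalloproteinases Mmp24 and Mmp16 rose by 0.71 (adjusted p = 0.00027) and 0.56 (adjusted p = 0.000834). The groups did not overlap for Timp2, Mmp24 or Mmp16.

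Of receptors and ligands of net proteoglycans 18 of 19 were tested, 5 higher and 7 lower, where 20.5% of all genes were higher and 15.4% lower, with a median of -0.13. Without mouse B 5 were higher and 9 lower, with a median of -0.17. Nptx2, a neuronal pentraxin that gathers on net-bearing neurons, was at 827, 962, 1308 and 1503 in bigenic mice A to D and at 2716, 2477, 2257 and 2438 in nontransgenic mice E to H. It fell by 1.14 on the log2 scale (adjusted p = 0.000927). Sema3a, a guidance cue held in nets by chondroitin sulphate, was at 624, 480, 766 and 741 in bigenic mice and at 1440, 1199, 1306 and 979 in nontransgenic mice. It fell by 0.92 on the log2 scale (adjusted p = 0.00225). The integrin subunit Itgav fell by 0.60 (adjusted p = 0.000832), and L1cam, an adhesion molecule that binds neurocan, rose by 0.82 (adjusted p = 0.000665). Altogether 22 of these 60 related genes were called, a share close to the 35.9% of all tested genes.

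**Figure D5:**
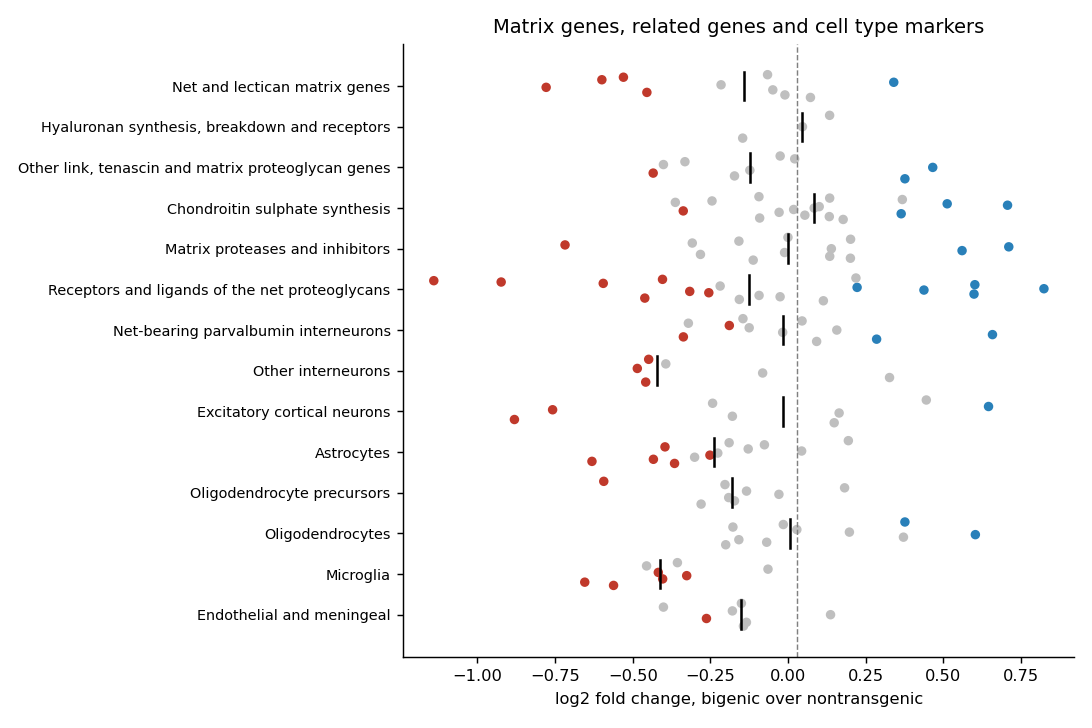
Log2 fold change of bigenic over nontransgenic mice (horizontal axis, log2 scale) for the 10 genes and each tested gene of the related and marker lists, with genes called higher in blue, called lower in red and not called in grey. Black bars mark each list's median and the dashed line the median over all genes, 0.03, and the choroid plexus list, with a median of 2.32, is left out for scale.

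Some markers of the cells that make or carry nets were called as well, where 20.5% of all genes were higher and 15.4% lower, and their part in the results above was not tested. Of the markers of net-bearing parvalbumin interneurons 11 of 12 were tested, 2 higher and 2 lower (2 and 3 without mouse B), with a median of -0.02 (-0.12 without mouse B) and summed levels of 26980 to 28479 in bigenic and 27811 to 28972 in nontransgenic mice. Potassium channel genes of fast-spiking cells went in opposite directions, with Kcnc1 higher by 0.29 (adjusted p = 0.015, and 0.0504 without mouse F) and Kcnc2 at -0.34 (adjusted p = 0.0293, and up to 0.0868 without mouse G). With the GC and length trend removed Kcnc1 was no longer called (0.13, adjusted p = 0.239). Gad1, which makes GABA, was at -0.19 (adjusted p = 0.0453, and up to 0.12 without mouse E).

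Astrocyte markers were all tested, and 5 of 12 were lower (6 without mouse B), where 15.4% of all genes were, with a median of -0.24 (-0.21 without mouse B) and summed levels of 141494 to 167850 in bigenic and 178150 to 193687 in nontransgenic mice. Aqp4, the water channel of astrocyte endfeet, was at 2820, 1975, 2212 and 2316 in bigenic mice A to D and at 3797, 4225, 3634 and 2819 in nontransgenic mice E to H. Mice A and H were level, and the others were apart (-0.63, adjusted p = 0.00698). The gap junction gene Gja1 fell by 0.43 (adjusted p = 0.00525) and Aldh1l1 by 0.37 (adjusted p = 0.0134). Slc1a2, the main glutamate transporter, was at -0.25 (adjusted p = 0.0389, and up to 0.106 without mouse G). Of the genes listed as oligodendrocyte precursor markers 8 of 8 were tested and only Ednrb was lower (-0.59, adjusted p = 0.000832). Which cells made Ednrb was not tested. Pdgfra was at -0.28 (adjusted p = 0.0897), with a list median of -0.18 and summed levels of 6319 to 8316 and 7535 to 9406. The lowest of these sums was that of mouse B, and without it the list median was -0.01. Gpr17 and Cspg4 were at 0.18 (adjusted p = 0.276) and -0.17 (adjusted p = 0.247). Of oligodendrocyte markers 10 of 10 were tested, 2 higher (Hapln2 and Mobp, the latter at 0.60 with an adjusted p of 0.0317 and up to 0.094 without mouse E), with a median of 0.01 (0.04 without mouse B) and summed levels of 71069 to 90842 and 69194 to 86940. For both lists the shares called were below the 35.9% of all tested genes.

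Of excitatory neuron markers 1 of 8 was higher and 2 were lower, where 20.5% and 15.4% of all genes were, with a median of -0.02 (-0.04 without mouse B, with the same counts). Camk2a, whose promoter drives the transactivator, was at 22112, 30548, 25011 and 24809 in bigenic mice A to D and at 44895, 45967, 49794 and 46914 in nontransgenic mice E to H (-0.88, adjusted p = 0.000176). Nrgn was also lower (-0.76, adjusted p = 0.00636). Of the genes listed as markers of other interneurons 3 of 6 were lower (Sst, Cck and Reln, at -0.46, -0.49 and -0.45). Reln was at an adjusted p of 0.0521 without mouse E, and Npy was at 0.33 (adjusted p = 0.1). The list median was -0.42 (-0.39 without mouse B, with 1 higher and 3 lower). Which cells made these transcripts was not tested. Of microglial markers 5 of the 8 tested were lower (5 also without mouse B), where 15.4% of all genes were, with a median of -0.41 (-0.34 without mouse B), and Cx3cr1 and P2ry12 fell by 0.56 and 0.65 on the log2 scale (adjusted p = 0.00156 and 0.00206). Of endothelial and meningeal markers 1 of the 7 tested was lower (Flt1, -0.26, adjusted p = 0.0404, and up to 0.122 without mouse F), with a median of -0.15 with or without mouse B. Of choroid plexus markers 5 of the 6 tested were higher (6 without mouse B), where 20.5% of all genes were, with summed levels of 14275 to 29482 in bigenic and 6591 to 8221 in nontransgenic mice, and F5 and Kl rose by 2.71 and 2.25 on the log2 scale (adjusted p = 5.08e-05 and 7.87e-05).

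The genes whose log2 levels over the 8 mice were most like those of Acan were Pcsk1, Setd3 and 2310061I04Rik (Pearson's r 0.988, 0.982 and 0.977). For Bcan they were Ddx17, Aarsd1 and Sod3 (0.976, 0.975 and 0.971). In all 6 of them, as in Acan and Bcan, mouse B was the highest of the 8 mice, as in Pcsk1, at 2060 against 837 to 1235 in the others. These likenesses are a description that rests largely on mouse B.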

How the data were processed

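RNA of 8 cortices was sequenced by the authors as 50-base single-end reads after poly(A) selection. The authors trimmed adaptors with cutadapt, aligned reads to mm9 with Bowtie 0.12.7, kept unique alignments and counted reads on exons with bedtools. The deposited signal is whole-number normalized counts per transcript and mouse, whose scaling is not stated. A further deposited table gives DESeq2 output of the authors (mean signal, log2 fold change and p-values), and only its names and mean signal were used. Columns are named by animal and show the genotype but no replicate number. The normalized counts that equal 1 read were estimated from each mouse's values up to 300, and 8 of 8 simulated columns gave the true step within 2 percent. As the deposited values are normalized rather than raw counts, no count test was run.

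Genes with at least 10 RPM in at least 1 mouse were tested with limma 3.58.1 in R 4.3.3 (lmFit, eBayes with trend) on log2(value + 1), so fold changes of low genes are understated. Adjusted p-values are Benjamini-Hochberg over all 10588 genes, with a threshold of 0.05. Within-mouse ratios were compared by exact permutation tests in scipy 1.17.1. The p-values measure the spread between these mice. Exon length, GC content and positions came from the NCBIM37 genome with GENCODE vM1, matched for 96.4% of tested genes. Promoters came from the RefSeq table of build GRCm38.p6, in which 8 of the 10 members have an entry and Hapln4 and Cspg5 do not. Shared windows of 50 bases were found in Ncan (24 of 7146) and Ptprz1 (8 of 8068).

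The members and lists were chosen with earlier results of these data known. Named genes are all members, up to 4 genes with the smallest p in each list, and for Acan and Bcan the 3 genes most alike over the 8 mice. Some genes that this rule names are not reported here. Alternatives were other pseudocounts, filters, scalings, weights and thresholds, each mouse left out, and, chosen after seeing the data, the scale factors implied by the authors' mean and removal of a GC and length trend.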

Additional observations from a re-analysis of the deposited data

Results flagged for a closer look

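A mouse was marked where its gap to the nearest group mate, divided by the range of its group of 4, exceeded Dixon's 95% critical value. Of 144 groups checked 11 were marked, 4 of them by mouse B, and chance marks about 1 in 20. Among the members this was Cspg5 in mouse B, at 9929 against 4775 to 5655 in its group mates (0.8293). Mouse B was also highest among bigenic mice for L1cam (5894 against 4180 to 4449, 0.8431), Nrgn (6967 against 3962 to 4442, 0.8403) and Emx1 (360 against 218 to 226, 0.9437).

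Among nontransgenic mice, mouse G was highest for Nrgn (9101 against 7596 to 7802, 0.8631), mouse H was highest for Chpf (1077 against 1016 to 1026, 0.8361) and mouse E was lowest for Aldh1l1 (1092 against 1198 to 1208, 0.9138). Among bigenic mice, mouse C was highest for Cx3cr1 (881 against 802 to 809, 0.9114) and mouse A for Csf1r (1615 against 1336 to 1362, 0.9068). For the log2 ratio of Acan to Bcan mouse E was highest in its group (-4.13 against -4.58 to -4.52, 0.865), and for that of Tnc to Tnr mouse G was lowest (-3.79 against -3.59 to -3.55, 0.8474). No explanation of these values was tested.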

How the results depend on the processing

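The 5 members called with all 8 mice were 3 at an adjusted p below 0.01, where Hapln1 and Tnc were no longer called, and between 5 and 6 when each mouse was left out. Of the related matrix genes 22 were called, 40 with array weights, 13 at an adjusted p below 0.01, and between 18 and 29 when each mouse was left out. Over all 10588 tested genes 3796 were called, and 6455 with array weights. With each mouse left out, between 2654 (without mouse G) and 4817 (without mouse B) of all tested genes were called. The count over all genes at an adjusted p below 0.01 is not given here. With array weights Bcan (-0.25, adjusted p = 0.0114) and Cspg5 (-0.38, adjusted p = 0.000435) were called lower. With at least 10 RPM in every mouse, Acan and Tnc were not tested. Members that were not called changed sign in some settings. With the GC and length trend removed, Acan was at -0.0369, Acan to Vcan at -0.0182 and Bcan to Vcan at -0.1621. When each mouse was left out, Acan lay between -0.0834 (without B) and 0.181, Bcan between -0.2095 (without B) and 0.0818, Vcan between -0.1708 and 0.064 (without B), and Cspg5 between -0.3091 (without B) and 0.0429. Bcan was above 0 without A, C, D, G or H, and Cspg5 without C or D. Left-out mice moved Acan to Bcan between -0.0015 and 0.1864, Acan to Vcan between -0.1474 and 0.3518 and Bcan to Vcan between -0.2735 and 0.1804. Of 1143 values of 64 single genes under alternatives, 1050 kept direction and side of the threshold, 61 lost and 22 gained a call, and 10 changed sign. The cause was not tested. No paired analysis was possible because the columns carry no replicate numbers. Depth limits Tnc and Acan most, with estimated reads down to 56 and 110.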
